A study of Mus musculus with 30 samples.

Results

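The chemokine receptor gene Cxcr3 and the genes of its 3 interferon-inducible ligands, Cxcl9, Cxcl10 and Cxcl11, were followed in bone marrow and in adipose tissue macrophages. All 4 genes had a row in both deposited count tables, among 13353 genes of the BM table and 17059 genes of the ATM table. These 4 genes were chosen by symbol, and the group was selected on BM values already known, in which Cxcl11 stood among the largest differences between Vehicle and WT and between Combo and Vehicle. The BM values of these genes are therefore given as a description.

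The mice were C57BL/6 recipients, WT or leptin-deficient Ob/Ob, aged 12 to 14 weeks by the sample labels and of both sexes. By the protocol in the labels, recipients were irradiated with 700 and then 400 cGy and transplanted with 500000 CD45.2+ BM cells of Shp2E76K/+;LysM-Cre+ donors, mixed with 500000 CD45.1+ competitor cells of Boy/J mice. LysM-Cre is active in myeloid cells, so the mutant Shp2 allele is switched on mainly in the myeloid cells that come from the donor. From week 8 after transplantation, Ob/Ob recipients were given for 30 days vehicle (Vehicle), the GLP-1R agonist beinaglutide at 3 mg/kg subcutaneously, an anti-IL-17A antibody at 200 μg per mouse 3 times a week intraperitoneally, or both (Combo). WT recipients formed the fifth group, and no donor is given for single samples, so a difference in donor between WT and the Ob/Ob groups of ATMs cannot be told apart from one in recipient. BM libraries came from whole bone marrow cells and ATM libraries from F4/80+ cells sorted from visceral adipose tissue, with 3 libraries per group and tissue.

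CXCL9, CXCL10 and CXCL11 are chemokines that share a single G protein-coupled receptor, CXCR3, which is carried mainly by activated T cells and NK cells. Macrophages, neutrophils, endothelial cells and other stromal cells transcribe the ligand genes in response to interferons, Cxcl9 chiefly under interferon gamma and Cxcl10 under either type of interferon or NF-κB signals. In C57BL/6 mice Cxcl11 carries a frameshift and does not give a working chemokine.

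The 3 ligand genes lie side by side on the reverse strand of chromosome 5 (GRCm38, GENCODE M21). Cxcl9 spans 92321347 to 92328079, Cxcl10 spans 92346638 to 92348889 and Cxcl11 spans 92359544 to 92365485, a stretch of 44139 bases from end to end. Cxcl11 is annotated as a polymorphic pseudogene, and the other 3 genes as protein-coding. Cxcr3 lies on the reverse strand of the X chromosome, from 101731535 to 101734269. Counting was without strand and let a read count for every gene it touched. Of the 3794 exon bases of Cxcl11, 1582 (41.7%) are shared with the opposite-strand processed pseudogene Gm2673, and of the 2252 exon bases of Cxcl10, 133 (5.91%) are shared with the opposite-strand gene Art3. Reads from such shared bases cannot be assigned to either partner. No exon base of Cxcl9 or Cxcr3 is shared with another gene.

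Promoter sequences are shown because the ligands moved together and interferon and NF-κB motifs are the textbook route to these genes. RefSeq promoters (GRCm38.p6, reverse strand, 250 bases before to 50 bases after the transcription start) were matched for Cxcl9, Cxcl10 and Cxcr3, 3 of the 4 genes. Capitals mark matches on either strand to the core of the interferon-stimulated response element (ISRE, GAAANNGAA), to the gamma-activated site (GAS, TTCNNNGAA) or to the NF-κB consensus.
Cxcl9 promoter, chr5:92328030-92328329: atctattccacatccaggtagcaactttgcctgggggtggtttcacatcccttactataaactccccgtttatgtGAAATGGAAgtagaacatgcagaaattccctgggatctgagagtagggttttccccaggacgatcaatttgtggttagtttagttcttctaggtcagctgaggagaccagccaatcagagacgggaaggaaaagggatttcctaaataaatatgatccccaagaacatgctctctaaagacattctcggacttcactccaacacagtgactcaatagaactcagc
Cxcl10 promoter, chr5:92348840-92349139: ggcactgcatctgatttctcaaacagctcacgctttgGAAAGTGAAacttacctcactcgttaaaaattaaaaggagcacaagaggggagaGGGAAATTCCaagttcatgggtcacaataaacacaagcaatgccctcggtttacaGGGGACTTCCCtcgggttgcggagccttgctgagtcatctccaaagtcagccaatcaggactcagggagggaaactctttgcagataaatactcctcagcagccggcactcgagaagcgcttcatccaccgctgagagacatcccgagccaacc

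The Cxcl9 promoter held 1 ISRE core match, at positions -175 to -167 from the start. The Cxcl10 promoter held 1 ISRE core match at -213 to -205 and 3 NF-κB matches, at -159 to -150, -104 to -95 and -103 to -94. The last overlaps the one before it and fits the consensus on both strands. No letters matching the GAS were found in the 3 windows, and no match to any of the 3 motifs in the Cxcr3 window. Of 32841 mouse promoters of the same length, 8.56% held an ISRE core match, 8.3% a GAS match and 8.46% an NF-κB match. A match describes letters and does not show binding.

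**Figure D1:**
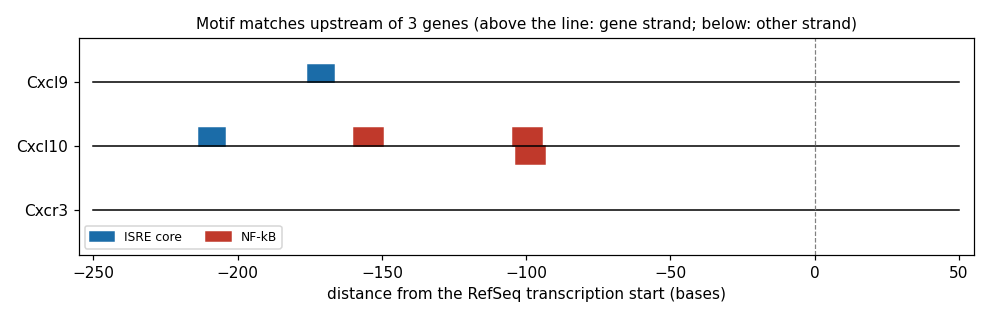
Motif matches in the RefSeq promoters of Cxcl9, Cxcl10 and Cxcr3, by distance in bases from the transcription start. Boxes above a line are on the gene's strand and boxes below on the other. Cxcl9 has 1 match, Cxcl10 has 4 and Cxcr3 has none. The Cxcl10 match at -103 to -94, drawn below the line, fits the NF-κB consensus on both strands.

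Library and cell checks came before the comparisons. BM libraries held 31086184 to 39925495 counts on genes and ATM libraries 24876074 to 45300263. Libraries of a group varied little in BM (biological coefficient of variation 3.51%) and more in ATMs (32.5%). No pair of libraries in a group agreed within counting noise (chi-square per gene from 2.02 to 34.8 over 30 pairs). The highest value was in BM, between WT replicates 1 and 2. WT replicates 1 and 3 gave 26.7 and replicates 2 and 3 gave 2.94, while pairs in the other BM groups gave at most 4.21. ATM pairs gave 11.7 to 26.8. The labels name 3 mice per group as biological replicates but do not say whether each library, of BM or of ATMs, came from a separate mouse. In both tissues p-values measure only the spread between these libraries, which may be technical. Sex-linked transcripts followed the groups. Xist, transcribed from the inactive X of females, averaged 6544 normalized counts in BM of Vehicle and 3610 in BM of Combo against 1.58 in WT, 2.17 with the GLP-1R agonist and 98.4 with the antibody. In ATMs Xist averaged 1250 in Vehicle and 1129 in Combo against 0 to 16.3 in the other 3 groups. The sex of the cells therefore cannot be told apart from the group where Vehicle or Combo is compared with WT or a single agent. In BM the same holds for Combo against Vehicle. There 4 of the 5 sex-linked genes met the call rule downward, 0 upward and 1 not at all, beside 11.1% and 6.58% of all genes. In ATMs 0 of the 5 were called between Combo and Vehicle, beside 12.2% lower and 14.1% higher. These limits cover every such value of the X-linked Cxcr3 given here. ATM libraries also held transcripts of other cells. The 7 neutrophil markers summed to 646648 to 684522 normalized counts in Vehicle and 337584 to 349411 in Combo, against at most 11629 in the other groups. The 8 endothelial markers summed to 94388 to 97308 in Vehicle and at most 28497 elsewhere, with 5 called higher in Vehicle than in WT, 1 lower and 2 not called. The 7 epididymis markers summed to 539771 to 551370 in WT and at most 8741 elsewhere, and the 7 pancreatic acinar markers to 34218 to 35559 in Combo and at most 199 elsewhere. Fibroblast and mesothelial markers were abundant in every ATM group, lowest in Vehicle at 193074 to 206658 and at 437707 to 803492 elsewhere. Of these 8, 6 were called lower in Vehicle than in WT and 2 not called. The 8 adipocyte markers summed to 133833 to 142181 in Vehicle and at most 43713 elsewhere. Of these, 2 were called higher in Vehicle than in WT, 4 lower and 2 not called. The macrophage genes Adgre1, which encodes F4/80, and Csf1r, the receptor of macrophage colony-stimulating factor, were lowest in Vehicle, at 1404 ± 373 and 1579 ± 274 (SD, n = 3) against 6913 ± 636 and 18149.8 ± 458 in WT. The 8 macrophage and monocyte markers went both ways, with 3 called higher in Vehicle than in WT (Fcgr1, Cd14 and Cd68), 3 lower (Adgre1, Csf1r and Lyz2) and 2 not called. Over all genes of the ATM table, 12.5% were called higher in Vehicle than in WT and 22.9% lower. In a bulk library, more cells of a type and more RNA per cell cannot be told apart.

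In BM, all 3 ligands were highest in Vehicle, where Cxcl9 and Cxcl10 were abundant and Cxcl11 was detected at a low level. Cxcl9 normalized counts were 9317, 9769 and 9575 in the 3 Vehicle libraries and 126, 95.2 and 84 in those of WT. Cxcl10 measured 9445, 9078 and 9446 in Vehicle and 48.5, 60.5 and 36.6 in WT. The groups did not overlap for either gene. Cxcl9 was 92.4-fold higher in Vehicle (log2 fold change 6.53, SE 0.10) and Cxcl10 was 190.5-fold higher (7.57, SE 0.07). Cxcl11 had 240, 287 and 236 raw counts in the Vehicle libraries and 0 in each of the other 12 BM libraries, which places it at least 98.1-fold higher in Vehicle than in WT against a floor of 3 counts per library. All 3 ligands thus passed the call rule upward, where 9.44% of all genes did, and since BM values chose the genes nothing is read from that count.

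The ligands were low in BM of each treated group. Cxcl9 measured 40.3, 33.3 and 32.7 with the GLP-1R agonist, 51.8, 44.1 and 33.6 with the anti-IL-17A antibody and 26.7, 9.53 and 35.5 in Combo. Its log2 fold change from Vehicle was -8.07 (SE 0.11), -7.80 (SE 0.11) and -8.63 (SE 0.12), in that order. Cxcl10 measured 28.1, 32.4 and 36.8 with the agonist, 52.8, 33.3 and 44.4 with the antibody and 35, 39.2 and 42.8 in Combo. Its log2 fold change from Vehicle was -8.17 (SE 0.08), -7.75 (SE 0.07) and -7.90 (SE 0.08). Cxcl11 was at least 101-fold, 102-fold and 91.9-fold lower than in Vehicle. Every treated library lay far below the lowest Vehicle library for each ligand. The 3 ligands met the call rule downward in each treatment, beside 9.08% of all genes with the agonist, 8.46% with the antibody and 11.1% in Combo.

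The receptor ran the other way in BM. Cxcr3 measured 102, 93.4 and 103 in Vehicle, against 247, 275 and 266 in WT, 280.3, 302 and 246 with the GLP-1R agonist and 258, 269 and 248 with the antibody. The Combo libraries, at 126, 176 and 164, lay between Vehicle and the rest without overlapping either. Cxcr3 was lower in Vehicle than in WT by a log2 fold change of -1.40 (SE 0.13), past the call rule beside 10% of all genes. Compared with Vehicle it was higher by 1.48 (SE 0.13) with the agonist, beside 7.6% of all genes called higher, and by 1.38 (SE 0.13) with the antibody, beside 7.65%. In Combo it was higher by 0.64 (SE 0.14), under the fold limit that 6.58% of all genes passed.

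**Figure D2:**
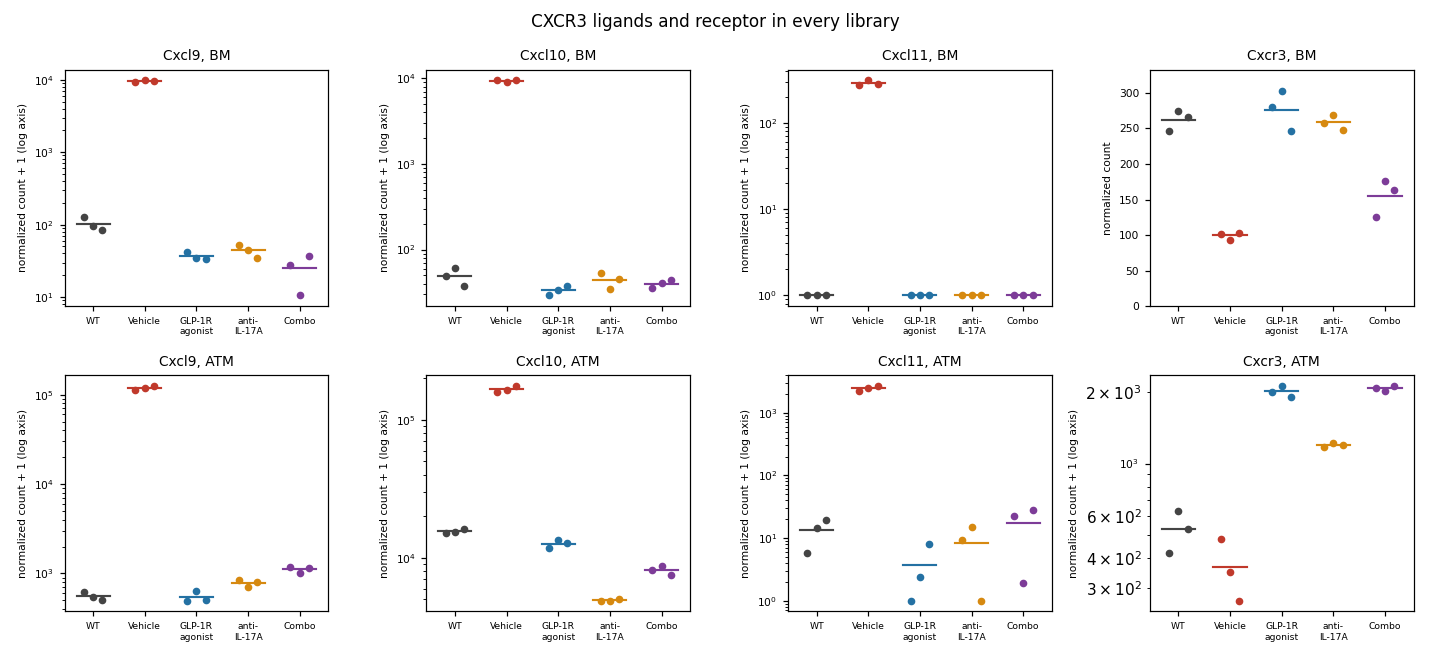
Normalized counts of the 4 genes in every library, BM above and ATMs below, with 1 point per library and a bar at the group mean (log axes with 1 added, except a linear axis from 0 for Cxcr3 in BM). The ligands are highest in all 3 Vehicle libraries of both tissues, while Cxcr3 is lowest there in BM and overlaps WT in ATMs.

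Against lean WT, treated BM differed in Cxcl9 and, in Combo, also in Cxcr3. Cxcl9 was lower than in WT in all 3 treatments without overlap, by a log2 fold change of -1.54 (SE 0.22) with the agonist, -1.27 (SE 0.21) with the antibody and -2.10 (SE 0.25) in Combo. Cxcl10 overlapped WT in each treatment, at -0.59 (SE 0.18), -0.18 (SE 0.17) and -0.32 (SE 0.18). Cxcl11 was at 0 counts on both sides, so no fold is given. Cxcr3 overlapped WT with either agent alone, at 0.08 (SE 0.11) and -0.02 (SE 0.11), and was lower in Combo at -0.76 (SE 0.12). In each of these comparisons 1 of the 4 genes, Cxcl9, met the call rule, beside 14.7% of all genes for the agonist, 6.32% for the antibody and 14.3% for Combo. Between Combo and the agonist, and between Combo and the antibody, 0 of the 4 genes met it, beside 13.2% and 5.67% of all genes. Cxcr3 was nevertheless lower in all 3 Combo libraries than in any library of either agent, by -0.84 (SE 0.12) and -0.74 (SE 0.12) on the log2 scale.

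The 2 single agents could be compared in BM by test, since neither group entered the choice of genes. No difference was called for Cxcl9, Cxcl10 or Cxcr3, beside 5.83% of all genes. Cxcl11 had 0 counts in both groups and could not be called. Cxcl10 was lower with the agonist by a log2 fold change of -0.41 (95% interval -0.83 to 0.004, adjusted p = 0.0528, edgeR). Cxcl9 differed by -0.27 (-0.88 to 0.34, adjusted p = 0.407, edgeR) and Cxcr3 by 0.10 (-0.14 to 0.34, adjusted p = 0.426, edgeR), with overlapping libraries for each. These libraries held 30 to 52 raw counts of Cxcl9 and Cxcl10, and differences inside these intervals are not excluded.

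In ATMs the ligands were again highest in Vehicle, at levels that made Cxcl9 and Cxcl10 prominent transcripts. Cxcl9 measured 113499, 119450 and 126023 normalized counts in Vehicle and 624, 544 and 506 in WT. Cxcl10 measured 160001, 163330 and 176998 in Vehicle and 15073, 15434 and 16180 in WT. Cxcl11 had 1666, 1691 and 1805 raw counts in Vehicle and 4, 13 and 17 in WT. No library of WT reached any Vehicle library for the ligands, and WT libraries already held at least 15073 normalized counts of Cxcl10. These libraries also hold other cells, so the counts cannot be assigned to macrophages. Cxcl9 rose 214.7-fold (log2 fold change 7.75, SE 0.12, adjusted p = 6.05e-17), Cxcl10 rose 10.7-fold (3.42, SE 0.06, adjusted p = 4.04e-16) and Cxcl11 rose 196-fold (7.61, SE 0.77, adjusted p = 4.74e-07, edgeR quasi-likelihood test for each). These 3 of 4 genes were called higher, beside 12.5% of all genes, and 0 of 4 lower, beside 22.9%. Summed neutrophil, endothelial and adipocyte markers were also highest in ATMs of Vehicle. In Combo, Cxcl9 was at most 1173 and neutrophil markers summed to at least 337584 normalized counts, below every Vehicle library. Of the 7 neutrophil markers, 4 were called lower in Combo than in Vehicle, 1 higher and 2 not called. The shares of all genes called lower and higher were 12.2% and 14.1%. The part of these cell types in the ligand values was not tested. The median log2 fold change of all genes was -0.21 in this comparison, 0.19 for the agonist against Vehicle, 0.17 for the antibody and 0 for Combo.

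The ligands fell in ATMs of all 3 treatments, and by unequal amounts. These comparisons share the Vehicle libraries with the one against WT. Cxcl9 measured 495, 630.0 and 497 with the GLP-1R agonist, 845, 711 and 811 with the antibody and 1173, 1022 and 1142 in Combo. Its log2 fold change from Vehicle was -7.80 with the agonist (SE 0.12, adjusted p = 5e-17), -7.24 with the antibody (SE 0.11, adjusted p = 6.56e-17) and -6.75 in Combo (SE 0.11, adjusted p = 2.14e-16, edgeR). Cxcl10 measured 11881, 13455 and 12819 with the agonist, 4898, 4900.3 and 5006 with the antibody and 8162, 8786 and 7465 in Combo. Its log2 fold changes were -3.71 (SE 0.06, adjusted p = 2.22e-16), -5.08 (SE 0.07, adjusted p = 1.08e-17) and -4.36 (SE 0.07, adjusted p = 1.09e-16, edgeR). Cxcl11 had 0, 1 and 8 raw counts with the agonist, 12, 18 and 0 with the antibody and 25, 1 and 28 in Combo. Its log2 fold changes were -9.59 (SE 0.88), -8.34 (SE 0.79) and -7.23 (SE 0.74), with edgeR adjusted p from 1.9e-07 to 6.8e-07. All 3 ligands were called lower in each treatment, beside 10.9% of all genes with the agonist, 13.1% with the antibody and 12.2% in Combo.

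**Figure D3:**
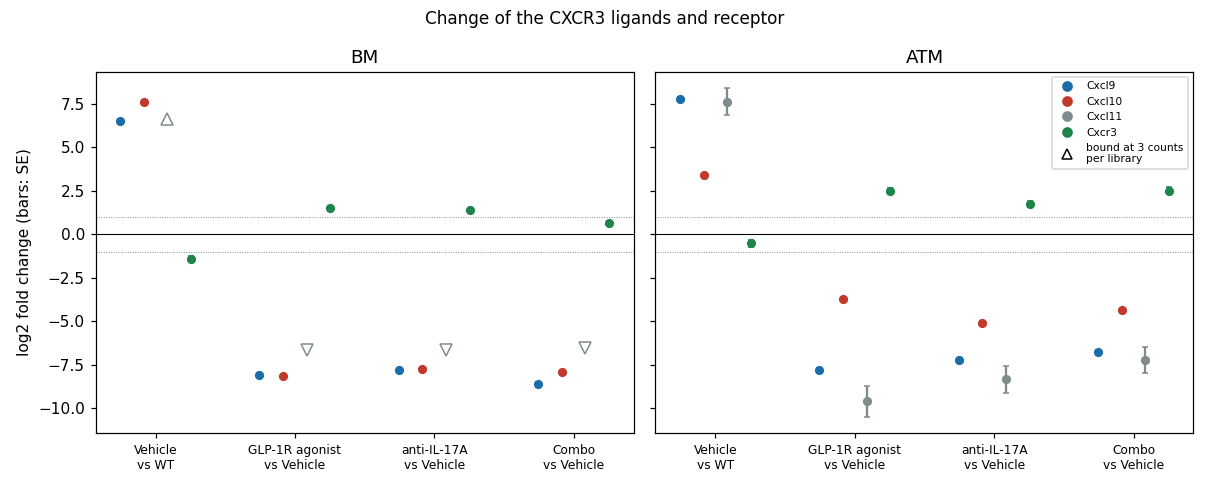
Log2 fold changes of the 4 genes in BM and ATMs for Vehicle vs WT and each treatment vs Vehicle, with SE as bars. Open triangles are bounds for Cxcl11 in BM against 3 counts per library, dotted lines the limit of 1, and in both tissues the ligands are above 0 in Vehicle vs WT and below 0 in every treatment.

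The order of the remaining groups in ATMs differed between Cxcl9 and Cxcl10. For Cxcl9 it was Combo, antibody, WT and GLP-1R agonist, and only WT and the agonist overlapped, with a difference of -0.05 on the log2 scale (95% interval -0.28 to 0.17, adjusted p = 0.732, edgeR). For Cxcl10 it was WT, agonist, Combo and antibody, and no neighbours overlapped. Cxcl9 was higher than in WT in Combo by 1.00 (SE 0.10, adjusted p = 5.58e-07) and with the antibody by 0.50 (SE 0.10, adjusted p = 0.000708, edgeR), both under the fold limit. The Combo value sat at that limit, at 1.08 without WT replicate 1 and 1.06 without Combo replicate 2, where it was called. Cxcl10 was lower than in WT with the antibody by -1.66 (SE 0.06, adjusted p = 3.31e-12) and was called, and lower by -0.94 in Combo (adjusted p = 2.64e-09) and -0.29 with the agonist (adjusted p = 0.000864, edgeR), which were not. Cxcl11 did not pass the test against WT in any treatment (adjusted p from 0.187 to 0.747, edgeR), with at most 28 raw counts in a library.

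A ratio taken within a library does not depend on scaling between libraries. Per base of exon, the ratio of Cxcl10 to Cxcl9 counts in ATMs was 32.4 to 42.9 in WT and 28.6 to 34.5 with the GLP-1R agonist, 7.77 to 9.23 with the antibody and 8.76 to 11.5 in Combo, and 1.83 to 1.89 in Vehicle. The Vehicle libraries lay apart from all others, the 2 antibody-treated groups overlapped each other, and WT overlapped the agonist. In BM the same ratio was 0.514 to 0.851 in WT and 1.25 to 1.36 in Vehicle, while treated libraries spanned 0.934 to 5.51 from few counts.

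Compared with each other, treated ATMs differed in 1 called gene at most. Combo exceeded the GLP-1R agonist in Cxcl9 by 1.05 (SE 0.10, adjusted p = 3.76e-07, edgeR), the only one of the 4 genes called, beside 18.7% of all genes. That call ended without agonist replicate 1 (0.99) or agonist replicate 3 (0.99), and Cxcl11, at 2.36 with all libraries (adjusted p = 0.0871, edgeR), was called at 4.55 without agonist replicate 3 and at 2.92 without Combo replicate 2. Cxcl10 was lower in Combo than with the agonist by -0.64 (SE 0.06, adjusted p = 2.46e-07, edgeR). Against the antibody, Combo was higher in Cxcl9 by 0.50 (SE 0.09, adjusted p = 0.000752), in Cxcl10 by 0.72 (SE 0.06, adjusted p = 1.17e-07) and in Cxcr3 by 0.79 (SE 0.17, adjusted p = 0.0023, edgeR), and 0 of 4 passed the fold limit, beside 14.2% of all genes. The agonist was higher than the antibody in Cxcl10 by 1.37 (SE 0.06, adjusted p = 1.06e-10, edgeR) and lower in Cxcl9 by -0.55 (SE 0.10, adjusted p = 0.000428, edgeR). Cxcl10 was the 1 of 4 genes called there, beside 8.1% of all genes.

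Cxcr3 rose with every treatment in ATMs. It measured 480, 349 and 263 normalized counts in Vehicle, 420.4, 632 and 530 in WT, 1996, 2127 and 1913 with the GLP-1R agonist, 1175, 1217 and 1201 with the antibody and 2085, 2017 and 2122 in Combo. Vehicle and WT overlapped, with a log2 fold change of -0.53 (SE 0.18, adjusted p = 0.0194, edgeR) that was under the fold limit. Relative to Vehicle, Cxcr3 rose by 2.46 with the agonist (SE 0.18, adjusted p = 1.52e-08), by 1.71 with the antibody (SE 0.18, adjusted p = 7.67e-07) and by 2.51 in Combo (SE 0.18, adjusted p = 1.34e-08, edgeR). This 1 gene of 4 was called higher each time, beside 20.8%, 22.4% and 14.1% of all genes. It also exceeded WT, by 1.93 with the agonist (SE 0.18, adjusted p = 4.3e-07), 1.18 with the antibody (SE 0.17, adjusted p = 5.96e-05) and 1.97 in Combo (SE 0.18, adjusted p = 2.36e-07, edgeR). Called against WT were 1, 2 and 1 of the 4 genes, in that order, beside 15.1%, 18.7% and 21.6% of all genes. Combo and the agonist overlapped, with a difference of 0.04 (95% interval -0.33 to 0.42, adjusted p = 0.869, edgeR), and both exceeded the antibody, the agonist by 0.75 (SE 0.17, adjusted p = 0.00345, edgeR).

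Cxcr3 was set beside markers of the lymphocytes that carry it. The 8 T cell markers summed to 4805 to 5239 normalized counts in ATMs of Vehicle, 8918 to 9713 in WT, 16115 to 16127 with the agonist, 18966 to 19623 with the antibody and 31082 to 31661 in Combo. Of the 8, 1 was called higher in Vehicle than in WT, 6 lower and 1 not called, beside 12.5% and 22.9% of all genes higher and lower. All 8 were called higher with the agonist than in Vehicle, 7 with the antibody and 7 in Combo. The shares of all genes called higher were 20.8%, 22.4% and 14.1%. The 8 NK cell markers summed to 5234 to 5731 in WT, 9925 to 10135 in Vehicle and 11384 to 14342 in the treated groups, with 1 of the 8 called higher in Vehicle than in WT, 3 lower and 4 not called. Ncr1, the NK cell receptor NKp46, averaged 5.99 in Vehicle and 118 to 298 elsewhere. F4/80 sorting should leave T and NK cells out, and the part of these markers in the Cxcr3 values was not tested. Per 100 normalized counts of the CD3 chain genes Cd3d, Cd3e and Cd3g, ATM libraries held 9.83 to 14.1 of Cxcr3 in WT, 12.6 to 24.4 in Vehicle, 35.2 to 39.1 with the agonist, 11.8 to 14.1 with the antibody and 14.3 to 15.1 in Combo. The agonist libraries stood above all others on this ratio. WT, the antibody and Vehicle overlapped, and Combo lay inside the range of Vehicle.

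In BM the CD3 genes gave another picture. The same ratio was 9.68 to 11.6 in Vehicle, 19.7 to 20.8 in WT, 19.1 to 22.2 with the agonist, 28.8 to 29.4 with the antibody and 24.3 to 40.3 in Combo. CD3 counts were 879 to 965 in Vehicle and 864 to 913 with the antibody, which overlap, while Cxcr3 was 93.4 to 103 and 248 to 269. Combo had the fewest CD3 counts, at 436 to 518. The 8 NK cell markers summed to 17208 to 17405 in BM of Vehicle, where Cxcr3 was lowest, and to 3585 to 6968 in the other groups. That sum was carried by cytotoxic effector genes, with Gzmb at 8398 and Gzma at 3185 on average in Vehicle. The NK cell receptor genes Ncr1 and Klrb1c averaged 72.8 and 320 there against 311 and 527 in WT. Over the list, 3 genes met the call rule upward in Vehicle against WT, 1 downward and 4 not at all. Of all genes, 9.44% met it upward and 10% downward.

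**Figure D4:**
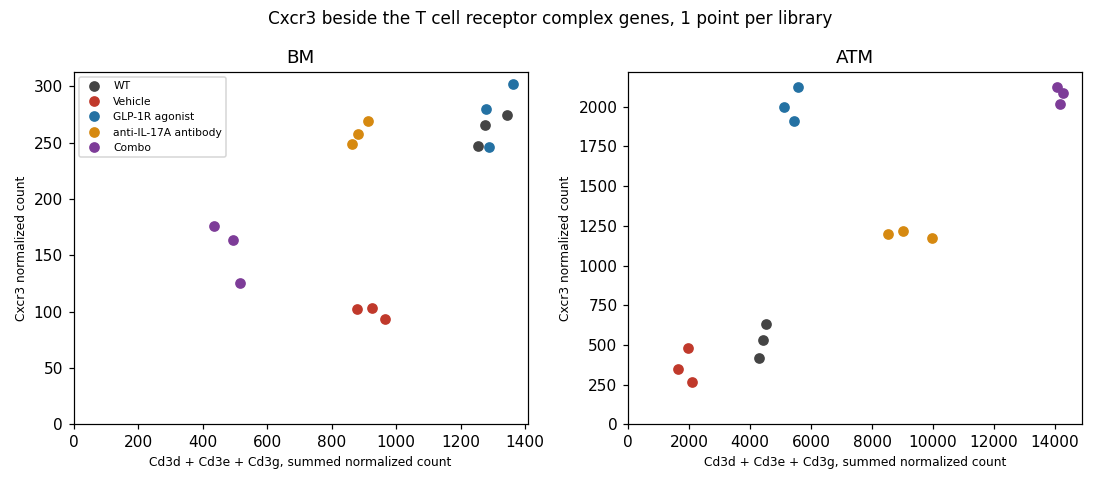
Cxcr3 normalized counts against the summed normalized counts of Cd3d, Cd3e and Cd3g, 1 point per library, in BM and in ATMs. In BM the Vehicle and antibody libraries have similar CD3 counts and Cxcr3 near 100 and 260, and in ATMs the agonist libraries have as much Cxcr3 as Combo at fewer CD3 counts.

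The log2 change in Combo, less the summed log2 changes of the agonist and of the antibody, all against Vehicle, was positive for the ligands and negative for Cxcr3. In ATMs it was 8.29 for Cxcl9 (SE 0.14), 4.43 for Cxcl10 (SE 0.08), 10.70 for Cxcl11 (SE 1.22) and -1.67 for Cxcr3 (SE 0.25). All 4 passed the call rule, beside 35.9% of all genes. Each agent alone had already taken the ligands far below Vehicle, Cxcl9 to 541 and 789 normalized counts on average against 558 in WT, so a positive value for the ligands was fixed by those 2 comparisons and is given as a description. In BM the departure was 7.24 for Cxcl9, 8.02 for Cxcl10 and -2.21 for Cxcr3, 3 genes past the call rule beside 21.1% of all genes, with Cxcl11 at 0 in both single-agent groups.

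The inducers of the ligands did not move as one. Ifng, which encodes interferon gamma, averaged 130 ± 12.8 normalized counts in BM of Vehicle (SD, n = 3), 27.9 ± 1.15 in WT, 10.1 ± 1.87 with the agonist, 21.9 ± 5.08 with the antibody and 4.15 ± 3.75 in Combo. The Vehicle libraries were above all others, as for the ligands. In ATMs Ifng was instead lowest in Vehicle, at 486 ± 126, beside 577 ± 92.7 in WT, 896 ± 116 with the agonist, 1297 ± 43.6 with the antibody and 1966 ± 51.8 in Combo. Vehicle and WT overlapped there (log2 fold change -0.25, adjusted p = 0.237, edgeR). Ifng rose in Combo by 2.01 (SE 0.18, adjusted p = 1.05e-07) and with the antibody by 1.42 (SE 0.17, adjusted p = 4.13e-06, edgeR) relative to Vehicle. The summed T cell markers of these libraries put the groups in the same order, from 5033 on average in Vehicle to 31461 in Combo. The summed NK cell markers did not, with WT lowest at 5530. The part of lymphocytes in the Ifng values was not tested.

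Ifnb1, which encodes interferon beta, was analysed here in ATMs and not in BM. It averaged 1353 ± 114 normalized counts in Vehicle, 58.2 ± 19.7 in WT, 638 ± 44.7 with the GLP-1R agonist, 46.5 ± 22.4 with the antibody and 105 ± 19 in Combo. It rose in Vehicle by 4.54 over WT (SE 0.35, adjusted p = 1.9e-08, edgeR) and fell from Vehicle with the antibody (-4.86), in Combo (-3.69) and with the agonist (-1.08, adjusted p = 9.32e-09, 1.43e-07 and 0.006, edgeR). Under the agonist Ifnb1 stayed above WT by 3.46 (SE 0.33, adjusted p = 7.61e-07, edgeR), while Cxcl9 overlapped WT and Cxcl10 was below it. Tnf, which encodes the NF-κB-activating cytokine TNF, averaged 20553 ± 1166 in ATMs of Vehicle and 1729 ± 228 to 2985 ± 337 in the other groups. In BM Tnf was 1578 ± 77.1 in Vehicle, 745 ± 21.1 in WT and 1050.0 to 1165 on average in the treated groups.

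Irf1, a transcription factor induced by interferon gamma, was highest in Vehicle in both tissues. Irf1 averaged 33446 ± 297 in ATMs of Vehicle and 6007 to 12946 elsewhere, and 7553 ± 287 in BM of Vehicle and 2654 to 3873 elsewhere. In ATMs Irf1 rose over WT by 1.37 (SE 0.06, adjusted p = 1.41e-11, edgeR). Irf7, the amplifier of type I interferon responses, averaged 172943 ± 2933 in ATMs of Vehicle and at most 3776 on average elsewhere. Of the 8 TNF and NF-κB genes, 5 were called higher in ATMs of Vehicle than in WT and 0 lower, beside 12.5% and 22.9% of all genes. In BM 2 met the call rule upward and 1 downward, beside 9.44% and 10% of all genes. The latter was Il1b, which encodes the cytokine interleukin-1 beta, at 564 in Vehicle and 5077 in WT on average.

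**Figure D5:**
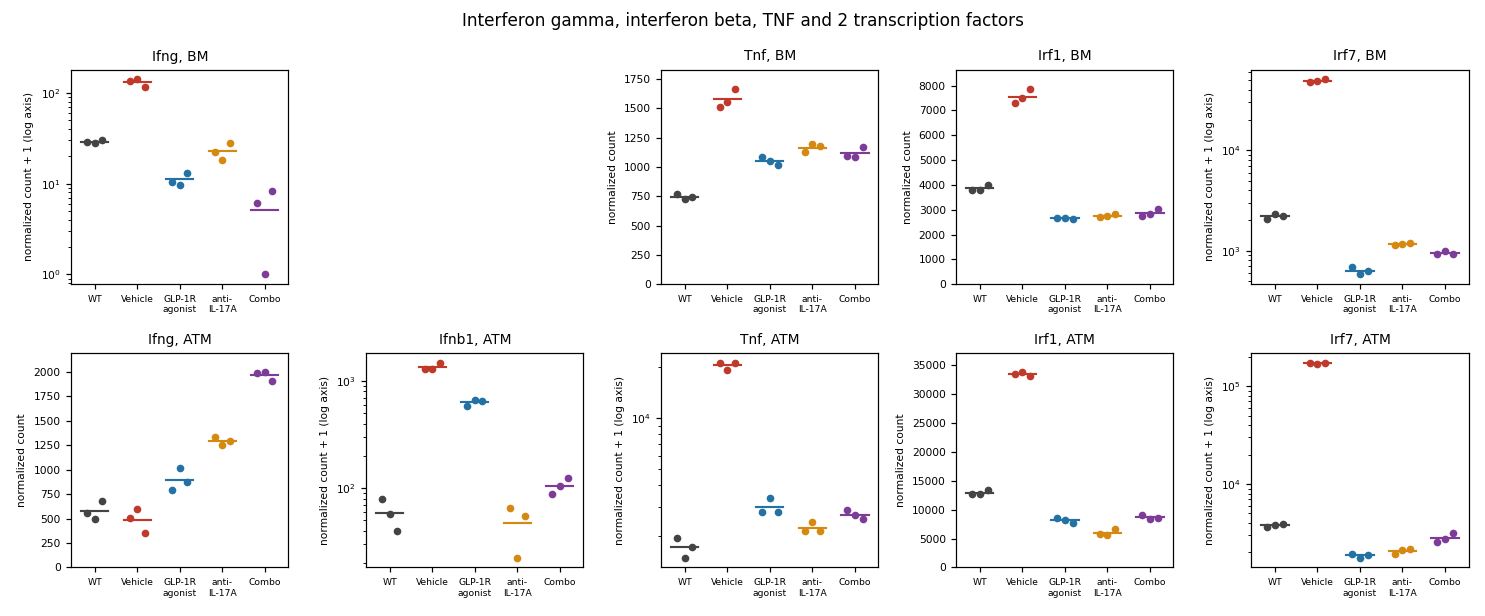
Normalized counts of Ifng, Ifnb1, Tnf, Irf1 and Irf7 in every library, BM above and ATMs below, with a bar at each group mean (log axes, marked, have 1 added). Ifng is highest in Vehicle in BM and in Combo in ATMs, and Ifnb1, shown for ATMs, is second highest with the GLP-1R agonist.

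Other interferon-inducible genes shared the ligands' pattern. In ATMs all 10 type I interferon-stimulated genes tested were called higher in Vehicle than in WT (median log2 fold change 4.81) and lower in each treatment than in Vehicle (medians -5.07, -5.86 and -5.25 for the agonist, the antibody and Combo). Of the 12 interferon gamma-inducible genes, 11 were called higher in Vehicle than in WT (median 2.89) and 11 lower in each treatment (medians -3.56, -3.78 and -3.30). The exception was Ciita, the transactivator of MHC class II genes, which fell in Vehicle and rose with the antibody and in Combo. Over all genes, 12.5% were called higher in Vehicle than in WT. Called lower than in Vehicle were 10.9% of all genes with the agonist, 13.1% with the antibody and 12.2% in Combo. Mx1, an antiviral GTPase, rose most among the type I genes, by 6.33, and Gbp5, a guanylate-binding protein, most among the gamma-inducible genes, by 4.47. In BM 10 of 10 type I genes and 10 of 12 gamma-inducible genes met the call rule upward in Vehicle against WT, beside 9.44% of all genes. Their medians were 4.29 and 2.58, beside -0.02 over all genes.

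Genes that handle the same ligands were measured as well. Of 8 such genes tested in ATMs, 2 were called higher and 2 lower in Vehicle than in WT, beside 12.5% and 22.9% of all genes, and nothing is read from these counts. Ackr1, an atypical receptor that binds inflammatory chemokines without signalling, rose by 2.89, from 1521 ± 79.9 to 11301 ± 192. Arrb2, a beta-arrestin that takes up occupied chemokine receptors, rose by 1.09. Dpp4, the protease CD26 that trims the ligands and blunts their activity at CXCR3, fell by 4.51, from 8799 ± 212 in WT to 384 ± 162 in Vehicle, and rose by 1.97 to 2.77 in the treatments. Pf4, which encodes the platelet and macrophage chemokine CXCL4, fell by 2.22 and rose by 2.48 to 3.26 in the treatments.

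Genes around the ligand cluster were measured beside it. Of 5 neighbours tested, 1 was called higher in BM of Vehicle than in WT and 0 lower, beside 9.44% and 10% of all genes. In ATMs these counts were 0 and 1, beside 12.5% and 22.9%, and nothing is read from them. The BM gene was Art3, which spans Cxcl10 and Cxcl11 on the other strand and shares exon bases with Cxcl10. It averaged 91.7 ± 18.9 normalized counts in BM of Vehicle and 7.90 to 15.8 in the other groups, against 9323 ± 212 for Cxcl10 in the same Vehicle libraries. In ATMs, where Cxcl10 rose as well, Art3 averaged 1047 ± 214 in Vehicle and 1017 ± 118 in WT. The part of the shared bases in the BM values of Art3 was not tested. Nup54, Sdad1 and Scarb2 passed the fold limit in neither tissue between Vehicle and WT.

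The genes most like each member over the 15 libraries of a tissue were named by Pearson r of log2 values, as a description across libraries that share groups. In BM these were Bcl2a1a, AW112010 and Bst2 for Cxcl9 (r from 0.992 to 0.994), Daxx, Sct and Cxcl11 for Cxcl10 (0.996 to 0.998), and Sct, Il22 and Gm15056 for Cxcl11 (at least 0.999). In ATMs they were Il18bp, Mndal and Daxx for Cxcl9 (0.994 to 0.997), Trim26, Pdlim7 and Ifi204 for Cxcl10 (0.989 to 0.990) and Ifi35, Igtp and Dysf for Cxcl11 (0.962 to 0.963). For Cxcr3 they were Kctd14, Mrc1 and 1300017J02Rik in BM (0.973 to 0.980) and Bcl11b, Rpl3 and Rpl14 in ATMs (0.946 to 0.951). Bcl11b is a T cell transcription factor. For Cxcl9, Cxcl10 and Cxcl11, r exceeded 0.9 for 495, 542 and 552 genes in BM and 622, 515 and 293 in ATMs. For Cxcr3 it did so for 123 genes in BM and 55 in ATMs, so the named genes are 3 of many.

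Levels of the 4 genes were compared per length of exon, within tables scaled separately. In Vehicle, Cxcl10 was the highest of the 4 in both tissues, at 119 RPKM (computed here from counts, exon length and scaled library totals) in BM and 2232 in ATMs, followed by Cxcl9 at 91.0 and 1196. Cxcl11 reached 2.18 and 19.6, and Cxcr3 1.65 and 6.34. In WT the order in ATMs was Cxcl10 at 208, Cxcr3 at 9.18, Cxcl9 at 5.57 and Cxcl11 at 0.0979, while in BM Cxcr3 led at 4.35, with Cxcl9 at 0.970, Cxcl10 at 0.619 and Cxcl11 at 0. Neighbours in these 4 orders did not overlap between libraries.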

How the data were processed

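Bulk RNA-seq counts of 15 BM and 15 ATM libraries, 3 for each of 5 groups, were analysed from 2 tables of raw read counts per gene deposited by the authors. The authors aligned paired-end reads to mm10 with STAR 2.7.2a and counted them with featureCounts 2.0.1 on GENCODE M22, ignoring strand, requiring a mapping quality of 10 or more, and letting a read count for each gene it touched. A low-count filter had been applied before deposition, since no gene summed to fewer than 55 counts in the BM table or 54 in the ATM table. The rule behind that filter is not given in the sources used here. BM libraries held 31086184 to 39925495 counts on genes and ATM libraries 24876074 to 45300263.

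Counts were fitted in R 4.3.3 with edgeR 4.0.16 (TMM scaling, filterByExpr, which removed 0 genes, robust quasi-likelihood test, 2-sided), with 1 fit per tissue. The call rule was an adjusted p (Benjamini-Hochberg, over every gene of the table) below 0.05 together with a log2 fold change beyond 1 in either direction. To give normalized counts, each count was scaled by the TMM-corrected library size relative to the average of its tissue, so levels in BM and in ATMs were scaled separately. For a group with no library above 3 counts, the fold is a bound against 3 counts per library. That bound and the limits of a zero count cover counting error only. Intervals of a log2 fold change are approximate 95% intervals from its SE and the residual degrees of freedom.

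Members and gene lists were chosen with earlier results of these data known. BM values had entered that choice, so in BM the members are described without a test except between the single agents. The named genes were the 4 members, then at most 4 called genes with the largest changes per list and comparison, with Ifng, Ifnb1, Tnf and Irf1 named throughout. One gene that this rule names is not reported here. Similar genes were the 3 with the highest Pearson r of log2 CPM (prior count 2) over 15 libraries, among genes that averaged 10 counts or more. Marker and sex-linked genes were named to check labels. Within-library ratios and the named neighbour Art3 were chosen after values were seen.

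Alternatives were DESeq2 size factors in edgeR, DESeq2 1.42.0, no low-count filter, a minimum of 10 counts in each library, calls without the fold limit, fits on the compared libraries alone, the replicate number as a block, and each library left out in turn. The edgeR and DESeq2 tests were checked on simulated counts. Gene positions were read from GENCODE M21, of the same build as the M22 release used for counting, and promoters from RefSeq on GRCm38.p6.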

Additional observations from a re-analysis of the deposited data

Results flagged for a closer look

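For 4 pairs of values, the libraries of BM and those of ATMs lay on opposite sides of the same contrast without overlap. The difference between tissues was not tested in any of them, and the 2 count tables were scaled separately. Cxcl9 in Combo against WT had a log2 fold change of -2.10 in BM and 1.00 in ATMs, a difference of 3.10. Cxcr3 in the same comparison had -0.76 and 1.97, a difference of 2.73. Cxcl9 with the anti-IL-17A antibody against WT had -1.27 and 0.50, a difference of 1.77. Cxcr3 in Combo against the antibody had -0.74 and 0.79, a difference of 1.53. Groups held 3 libraries, so single libraries were not tested as outliers.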

How the results depend on the processing

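Of 302 counts of called genes under the alternatives, 280 stayed within 1.5 times the reported count. With at least 10 counts in every library, Cxcl9 and Cxcl11 were no longer tested in BM nor Cxcl11 in ATMs, and the BM counts became 2 for Vehicle vs WT, 2 each for the agonist and the antibody vs Vehicle, 1 for Combo vs Vehicle and 0 for each treatment vs WT. With no fold-change limit, counts in BM were 2 for Combo vs WT, 2 for the agonist vs WT, 1 for Combo vs the agonist and 2 for Combo vs the antibody. In ATMs they were 3, 2, 2 and 3, and 3 for the agonist vs the antibody. With only the libraries compared, 2 genes were called for Combo vs WT in ATMs. Leaving out 1 library gave 0 to 1 for Combo vs the antibody in BM (1 without Combo replicate 3), and in ATMs 1 to 2 for Combo vs WT and 0 to 2 for Combo vs the agonist. In ATMs the sign turned for Cxcl11 in Combo vs WT without Combo replicate 3 (-0.13, with a range up to 0.94) and for Cxcl9 with the agonist vs WT without WT replicate 1 (0.035), agonist replicate 1 (0.006) or agonist replicate 3 (0.005, with a range down to -0.17), none of which passed the test. The cause was not tested.

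With the replicate number as a block, 4 genes were called for Vehicle vs WT in BM, and the block changed none of the 22 counts. Same-numbered libraries of different groups in a tissue showed little common deviation (r from -0.0698 to 0.147 in BM and -0.0425 to 0.0307 in ATMs). BM and ATM libraries of the same number were not compared, so whether they share a mouse or a batch is not known. Depth limits Cxcl11, at no more than 28 counts outside Vehicle.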
